A study of Mus musculus with 13 samples.

Results

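The IL-2 receptor and STAT5 pathway was followed through 10 genes, read by symbol from the count tables as 10 of the 24417 named genes: the ligand Il2, the receptor chains Il2ra, Il2rb and Il2rg, the kinases Jak1 and Jak3, the transcription factors Stat5a and Stat5b, and Cish and Socs2, which STAT5 induces and whose products restrain cytokine signalling. All 10 were found and all 10 passed the filter on low counts in each fit. RNA-seq had been made from sorted T cells of spleen and lymph node of C57BL/6 mice, in 13 libraries of 5 groups. The study asked how regulatory T (Treg) cells that regain Foxp3 during autoimmune disease differ from control Treg cells, and what inflammation does to Treg "wannabes", cells that transcribe the Foxp3 locus but cannot make the protein.

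Of the 5 groups, 3 came from males, all given 4-hydroxytamoxifen on postnatal day 14 and analysed at day 21. Control Treg cells (Foxp3DTR-GFP/yCd4creERT2, n = 3 libraries) carried a working Foxp3 allele with a diphtheria toxin receptor and a GFP reporter. Rescued Treg cells (Foxp3LSL/yCd4creERT2, n = 3) carried the LSL allele, a reversible null in which a floxed Thy1.1-STOP cassette precedes Foxp3 and GFP, and were sorted as GFP+ after Cre had excised the cassette. Male "wannabes" (Foxp3LSL/yCd4wt, n = 2) carried the same allele without Cre, so their cassette stayed in place and their hosts were diseased. The creERT2 was expressed from Cd4, which limits excision to cells that express Cd4 and does not single out Treg cells, and both Cre groups carried it. The other 2 groups came from females of 9 to 11 weeks, all given diphtheria toxin 7, 5, 3 and 1 days before analysis and all Cd4wt. Resting "wannabes" (Foxp3LSL/WTCd4wt, n = 3) shared their host with wild-type Treg cells that the toxin spares. Activated "wannabes" (Foxp3LSL/DTRCd4wt, n = 2) came from hosts whose receptor-bearing Treg cells the toxin removes. By the study's methods the libraries were biological replicates, although the labels name no animal for a library, and each p-value below measures the spread between these libraries. Sex, age, drug and count table changed together between the experiments, so their effects cannot be told apart, and levels are compared within an experiment only.

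As background, Treg cells make little or no IL-2 and depend on IL-2 made by other T cells. The alpha chain (CD25, from Il2ra) raises the affinity for IL-2, while the beta chain (from Il2rb) and the common gamma chain (from Il2rg) carry the signal. JAK1 binds the beta chain and JAK3 the gamma chain, and the STAT5 proteins that they phosphorylate enter the nucleus and induce, among others, Il2ra, Foxp3 and the feedback inhibitors CIS and SOCS2. STAT5 activity is set by phosphorylation, which mRNA does not measure.

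Libraries held between 25556783 and 36659638 counts in males and between 28059854 and 31462226 in females, so 9 of the 10 genes rest on at least 2066 counts in every library, and only Il2 was limited by depth. Foxp3 itself was at 5479 to 8264 normalized counts in control Treg cells, 28381 to 36405 in rescued Treg cells and 2762 to 3273 in male "wannabes", where transcripts from the interrupted locus are still counted. Both Treg groups were thus above the male "wannabes", in the direction of the labels. The labels do not give the gap between rescued and control Treg cells, which carried different alleles. The 4 T cell markers Cd3d, Cd3e, Cd3g and Cd4 were present in all libraries at a summed level of 72625 to 124674.5 normalized counts. Of the other cell types, the B cell list reached at most 1444 normalized counts, CD8 T cells 912, red cells 480, myeloid cells 358, NK cells 224, mast cells or basophils 127 and dendritic cells 69.7. The sort gate was TCRβ+CD4+CD8-NK1.1-, which leaves out NK cells that carry NK1.1, the product of Klrb1c. In bulk RNA, fewer cells of a type and less RNA per cell cannot be told apart.

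Since Cish was the pathway target that changed most often, its promoter is printed beside that of Il2ra, another gene that STAT5 induces. The sequences are those of RefSeq on GRCm38.p6, from 250 bases before to 50 bases after the annotated start, with the palindromic STAT motif TTCNNNGAA, which reads the same on both strands, in capitals. Those of Cish (chr9:107296409-107296708, plus strand) and Il2ra (chr2:11642542-11642841, plus strand) read, 5′ to 3′:
Cish: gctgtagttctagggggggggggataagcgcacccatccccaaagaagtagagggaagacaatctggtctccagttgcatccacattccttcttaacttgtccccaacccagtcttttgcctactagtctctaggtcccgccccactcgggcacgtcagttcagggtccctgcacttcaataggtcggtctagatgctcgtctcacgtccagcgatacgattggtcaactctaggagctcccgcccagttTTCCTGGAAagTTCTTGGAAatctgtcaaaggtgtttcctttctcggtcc
Il2ra: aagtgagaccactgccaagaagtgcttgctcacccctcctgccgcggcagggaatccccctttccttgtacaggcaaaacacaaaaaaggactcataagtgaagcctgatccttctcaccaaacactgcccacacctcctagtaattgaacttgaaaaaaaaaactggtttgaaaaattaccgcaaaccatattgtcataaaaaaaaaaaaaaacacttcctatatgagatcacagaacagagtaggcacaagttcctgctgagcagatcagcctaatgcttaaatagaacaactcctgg
The Cish window held 2 such motifs, TTCCTGGAA over bases 1 to 9 of the annotated transcript and TTCTTGGAA over bases 12 to 20, counted from the RefSeq start at base 107296659. The GENCODE gene model, whose bounds are given with the counts of Cish below, begins upstream of that, at base 107296026. At least 1 motif was found in 8.3% of the 32851 mouse promoter windows and 2 or more in 0.457%. Of the 10 genes, all but Il2rb and Socs2 had an entry, 8 genes with 10 windows in all, and only that of Cish held the motif. A motif is a match of letters, and these data do not measure binding.

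The 10 genes changed in different combinations in each comparison, by edgeR's quasi-likelihood test with adjusted p under 0.05. Adjusted p-values below are edgeR's with Benjamini-Hochberg adjustment over all genes tested unless DESeq2 is named, and values with ± are log2 differences and their standard errors unless SD is written. Between rescued and control Treg cells, 0 of 10 passed, beside 2.3% of the 14925 genes tested (1.43% higher and 0.864% lower). At an unadjusted p under 0.05 the count was 1, Il2ra, beside 16.1% of all genes, and DESeq2 called 0 beside 8.16% of all genes. Against male "wannabes", control Treg cells had 3 genes higher (Il2ra, Jak1 and Stat5b) and 1 lower (Cish), 4 of 10 beside 16.2% of all genes (9.92% higher and 6.27% lower), and DESeq2 also called 4, beside 25.6%. Rescued Treg cells had 2 higher (Jak1 and Jak3) and 1 lower (Cish), 3 of 10 beside 14.1% (10% higher and 4.06% lower), and DESeq2 called 6, adding Il2, Stat5b and Socs2, beside 23.2%. These 3 comparisons share libraries and are not independent of each other. In activated against resting "wannabes", 4 genes were higher (Il2rb, Il2rg, Jak3 and Cish) and 1 lower (Socs2), 5 of 10 beside 22.5% of 13166 genes (11.3% higher and 11.2% lower), and DESeq2 called 6, adding Stat5a, beside 26.6%.

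**Figure D1:**
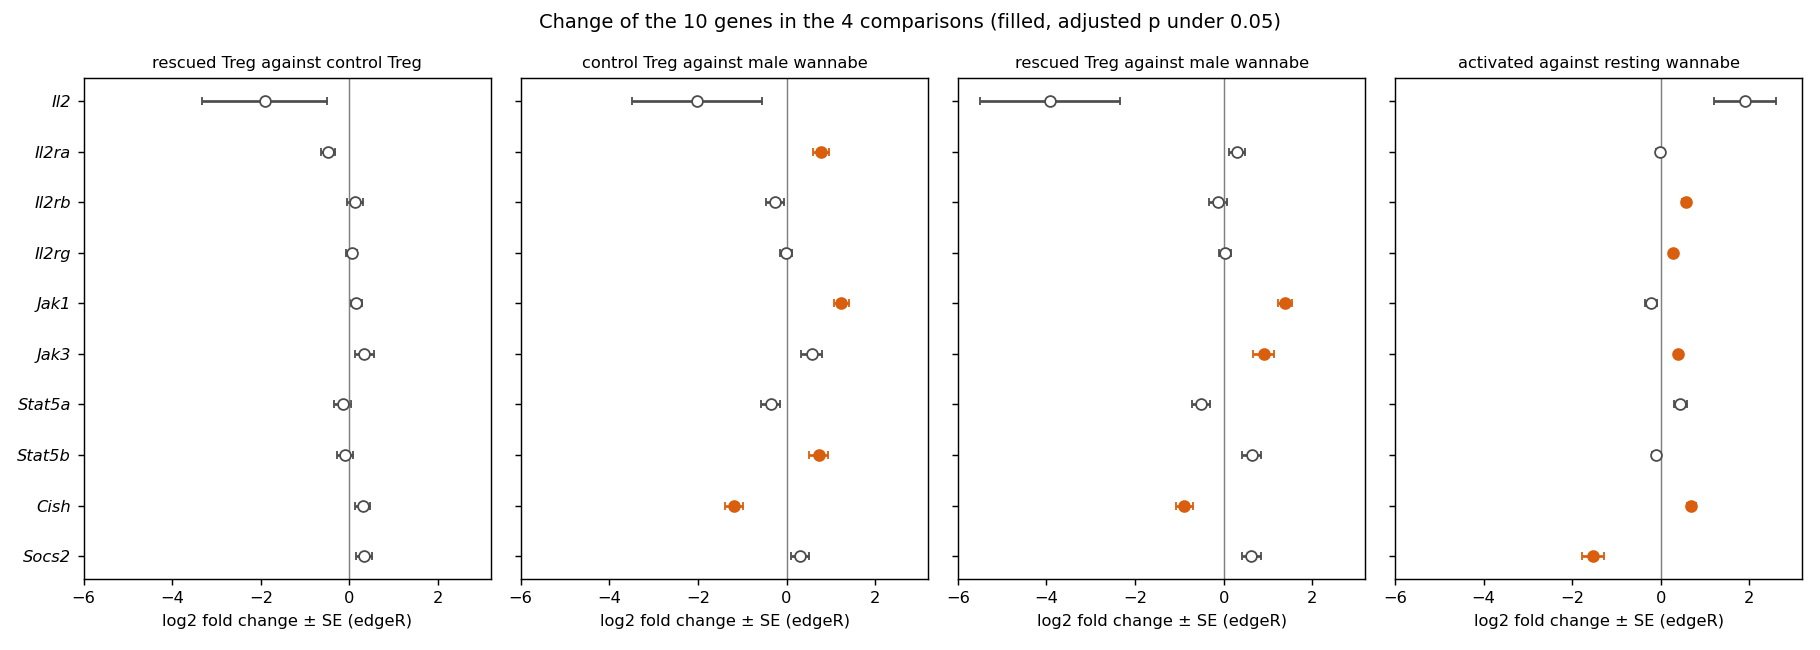
Log2 fold change with its standard error (horizontal axis, edgeR) of the 10 genes in the 4 comparisons. Filled points passed at adjusted p under 0.05. None did between rescued and control Treg cells, while Jak1 and Cish stand on opposite sides of 0 in both comparisons with male "wannabes", and Cish and Socs2 do so in activated against resting "wannabes".

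Counted instead by whether the libraries of the groups overlapped, 3 of 10 genes were apart between rescued and control Treg cells (Il2ra, Jak3 and Socs2), beside 24.2% of all genes. The number was 6 of 10 beside 46.1% for control Treg cells against male "wannabes", 6 of 10 beside 42.7% for rescued Treg cells against male "wannabes", and 7 of 10 beside 56.5% for activated against resting "wannabes". Groups as small as these were apart for a large share of all genes.

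Il2, the ligand (chr3:37120523-37125959, minus strand, GRCm38 as for all genes below), had the lowest counts of the 10 genes in every group. The control Treg libraries held 2, 12 and 12 counts, the rescued Treg libraries 1, 2 and 3, and the male "wannabe" libraries 47 and 21. The resting "wannabe" libraries held 5, 21 and 26 counts and the activated ones 38 and 103. Both male "wannabe" libraries lay above all 6 Treg libraries, and both activated libraries above all 3 resting ones. Every rescued library was at or under 3 counts, so the pooled ratio is given with its 95% counting interval, which covers counting error only: male "wannabes" held 16.6 times (7.25 to 46.8) as much Il2 as rescued Treg cells and 4.05 times (2.55 to 6.64) as much as control Treg cells. Activated "wannabes" held 3.73 times (2.69 to 5.23) as much as resting ones. None of these passed edgeR's test across libraries, with adjusted p of 0.127, 0.381 and 0.0998, and DESeq2 called the first at 0.0336. Reads could also be misplaced here, since 12.6% of the 50-base windows of Il2 transcripts also occur in Ntan1, a gene with 2347 to 4141 counts per library.

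Il2ra, the alpha chain (chr2:11642807-11693193, plus strand), was highest in control Treg cells among the male groups. These libraries lay close together, at 20412.5, 20662 and 20241.5 normalized counts. The rescued Treg libraries were at 11906, 14384 and 17659, and the male "wannabe" libraries at 11184 and 12623. All control libraries were thus above all others of the experiment, and 1 rescued library lay within the range of the male "wannabes". Control Treg cells had more Il2ra than male "wannabes" by 0.78 ± 0.175 (log2 ± SE, edgeR adjusted p = 0.0125), and the call was kept in 7 of 8 fits that left out a library. It was lost, at an adjusted p of 0.0503, without male "wannabe" replicate 1. The difference between rescued and control Treg cells was -0.48 ± 0.153 (adjusted p = 0.142, and 0.0734 by DESeq2), and that between rescued Treg cells and male "wannabes" was 0.3 ± 0.172 (adjusted p = 0.288).

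In the females Il2ra had the smallest difference of the 10 genes. Resting "wannabes" held 13350.0, 14222 and 14273 normalized counts and activated ones 13066 and 14485.5, so that the groups overlapped. The estimate was -0.02 ± 0.0792 (adjusted p = 0.891).

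Il2rb, the beta chain (chr15:78479256-78495271, minus strand), and Il2rg, the common gamma chain (chrX:101264378-101268255, minus strand), did not pass the test in any comparison of males. Il2rb ran from 46237.5 to 55771 normalized counts in control Treg cells, from 45579 to 61193.5 in rescued Treg cells, and was 45943 and 74722.0 in male "wannabes". Il2rg ran from 37810.0 to 42601 in control and from 38211 to 43924.5 in rescued Treg cells, and was 36958 and 43546 in male "wannabes". The groups overlapped for both chains, and the log2 differences lay between -0.27 and 0.13 for Il2rb and between -0.02 and 0.05 for Il2rg. Il2rb of control Treg cells passed as lower than in male "wannabes" once male "wannabe" replicate 1 was left out (-0.58, adjusted p = 0.0493).

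In the females both signalling chains were higher in activated "wannabes". Il2rb was at 29868, 29695.0 and 34837 normalized counts in resting libraries and at 48318.5 and 45265 in activated ones. Il2rg was at 35467.0, 38407.0 and 37925 in resting and at 43979 and 46660 in activated libraries. No library overlapped for either gene. Il2rb rose by 0.57 ± 0.0924 (adjusted p = 0.00809) and Il2rg by 0.28 ± 0.0713 (adjusted p = 0.0342). Each call was lost without either activated library, which leaves a lone library that is assumed to vary like the others, and that of Il2rg also without resting replicate 1 (adjusted p = 0.0757). Reads of Il2rg may be shared with Gm20489, a gene model on the same strand that overlaps 728 exonic bases and holds 27.5% of its 50-base windows.

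The chains thus stood in different proportions in the groups. Per kilobase of exon, Il2rb mRNA exceeded Il2ra mRNA by 3.27 ± 0.297 times (SD, n = 3) in control Treg cells, with libraries from 3.02 to 3.6. The ratio was 5.03 ± 0.388 in rescued Treg cells (4.62 to 5.38) and 5.47 and 7.89 in the 2 male "wannabe" libraries. In females it was 3 ± 0.236 (2.78 to 3.25) in resting and 4.93 and 4.16 in activated "wannabes". The control Treg libraries lay below all other male libraries and the resting libraries below both activated ones. This ratio was chosen after its values were seen and is given without a test, and its size depends on the exon lengths used.

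Jak1 (chr4:101152367-101265282, minus strand), which encodes the kinase of the beta chain, was low in male "wannabes". It was at 39019.5, 35408 and 27974 normalized counts in control Treg cells and at 38144, 36346.5 and 38641 in rescued Treg cells. In male "wannabes" it was at 13784 and 15205. All 6 Treg libraries were above both male "wannabe" libraries. Jak1 was higher by 1.24 ± 0.162 in control Treg cells (adjusted p = 0.00105) and by 1.38 ± 0.163 in rescued Treg cells (adjusted p = 0.0004), and both calls were kept in 8 of 8 fits that left out a library. In females, resting "wannabes" held 43456, 36248 and 48984 and activated ones 38926 and 34694.0 (-0.22 ± 0.133, adjusted p = 0.272), with overlap.

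Jak3 (chr8:71676296-71690575, plus strand), which encodes the kinase of the gamma chain, was at 13775.0, 14250.0 and 13017 normalized counts in control Treg cells. It was at 15627.5, 14910 and 21214 in rescued Treg cells and at 6593 and 11861 in male "wannabes". The groups followed the order male "wannabe", control, rescued without overlap. Of the differences, only that between rescued Treg cells and male "wannabes" passed (0.90 ± 0.242, adjusted p = 0.0292). It was kept in 5 of 8 fits, and the largest adjusted p, 0.124, came without male "wannabe" replicate 1. The differences were 0.57 (adjusted p = 0.132, and 1.01 with 0.0139 without male "wannabe" replicate 2) for control Treg cells against male "wannabes" and 0.34 ± 0.21 (adjusted p = 0.496) for rescued against control Treg cells.

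Activated "wannabes" had more Jak3 than resting ones. The resting libraries held 12042.5, 12227 and 11159 normalized counts and the activated ones 15454.0 and 15447. The gap was wider than the spread within either group, at 0.39 ± 0.0729 (adjusted p = 0.0139), and the call was lost without either activated library (0.113 and 0.109). The model of Jak3 overlaps 404 exonic bases of Insl3 on the same strand, but Insl3 had 0 counts in all 13 libraries.

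Stat5a (chr11:100859351-100885169, plus strand) and Stat5b (chr11:100780731-100850724, minus strand), the neighbouring genes of the near-identical STAT5 proteins, differed in which group was high. Stat5b was at 15888.5, 19350 and 17105 normalized counts in control Treg cells, 15193, 15433 and 18415 in rescued Treg cells and 8046 and 13088 in male "wannabes". All 6 Treg libraries were above both male "wannabes". Stat5b was higher in control Treg cells by 0.72 ± 0.207 (adjusted p = 0.0357), a call kept in only 3 of 8 fits. The largest adjusted p was 0.166, without male "wannabe" replicate 1, and leaving out control replicates 1, 2 or 3 gave 0.0607, 0.106 and 0.0813 and rescued replicate 2 gave 0.0532. For rescued Treg cells the difference was 0.63 (adjusted p = 0.0671, and 0.0378 by DESeq2), and it passed without male "wannabe" replicate 2 (0.979, adjusted p = 0.00842).

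Stat5a was at 7219, 8545 and 6750 normalized counts in control Treg cells, 6425, 7422 and 6406 in rescued Treg cells and 7283 and 11983.0 in male "wannabes". The groups overlapped. The estimate was lower in Treg cells by both comparisons (-0.36, adjusted p = 0.27, and -0.51, adjusted p = 0.134), and both passed only without male "wannabe" replicate 1 (0.0316 and 0.0142).

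In females Stat5a was at 3702, 3071 and 4301 normalized counts in resting and at 4826 and 5213 in activated "wannabes". These did not overlap, and the difference of 0.44 ± 0.141 missed the threshold of edgeR (adjusted p = 0.0673) and passed that of DESeq2 (0.0308). It also passed with edgeR without resting replicate 3 (0.567, adjusted p = 0.0261). Stat5b overlapped between resting (12046, 10735 and 12653) and activated libraries (10379 and 11695), with a difference of -0.10 ± 0.0993 (adjusted p = 0.511).

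The share of Stat5a in the summed Stat5a and Stat5b mRNA, per kilobase of exon, set male "wannabes" furthest apart. It was 26.1%, 25.5% and 23.5% in control Treg cells, 24.7%, 27.2% and 21.3% in rescued Treg cells and 41.3% and 41.6% in male "wannabes". In females it was 19.3%, 18.2% and 20.9% in resting and 26.5% and 25.7% in activated "wannabes". Both wannabe libraries of the males were above all 6 Treg libraries, and both activated above all 3 resting. The difference was -16.4 percentage points for control and -17 for rescued Treg cells against male "wannabes", and 6.68 for activated against resting, each with a two-sided exact permutation p = 0.2, the smallest that 3 against 2 libraries give. Between rescued and control Treg cells it was -0.63 (exact permutation p = 0.8). The paralogs share 608 windows of 50 bases, 11% of those of Stat5b, and how reads from these were placed is not given in the sources used here.

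**Figure D2:**
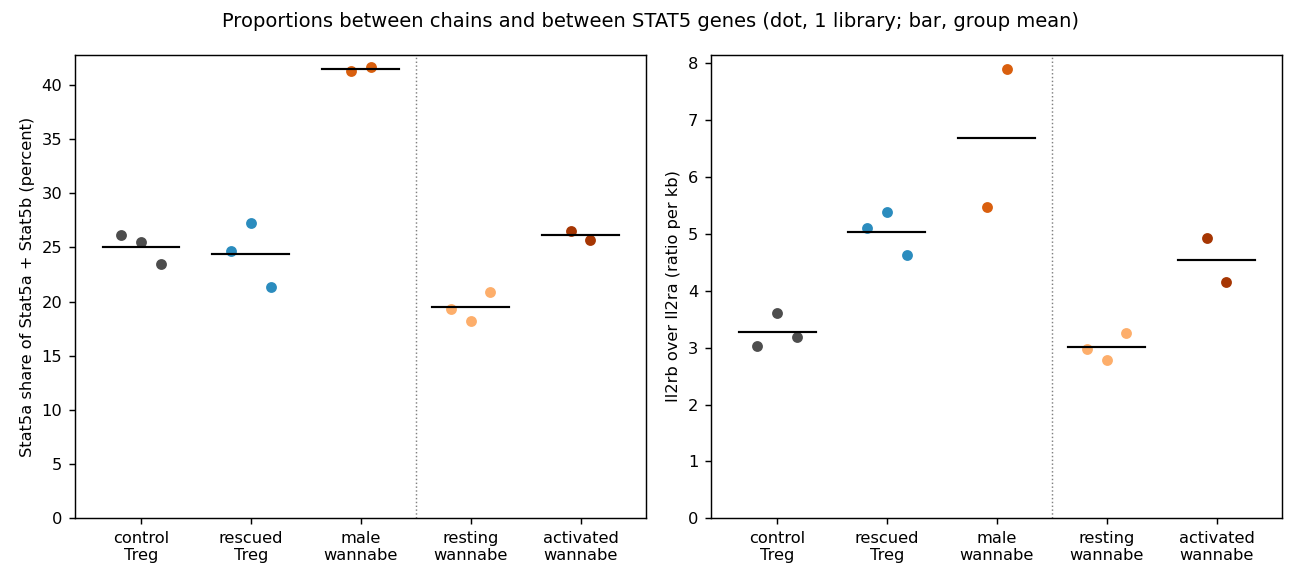
Left, Stat5a as a percentage of Stat5a plus Stat5b mRNA per kilobase. Right, Il2rb over Il2ra mRNA per kilobase. Each dot is 1 library, bars are group means, and the dotted line parts males from females. The male "wannabes" sit at 41.3% and 41.6% on the left, above the other male libraries.

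Cish (chr9:107296026-107302784, plus strand) encodes CIS, a feedback inhibitor that binds the activated receptor. It was at 10738, 14061 and 13293 normalized counts in control Treg cells and at 13512, 17034.0 and 16230 in rescued Treg cells. Male "wannabes" held 22766.5 and 34728.5. Both male "wannabe" libraries were above all Treg libraries, while control and rescued libraries overlapped. Against male "wannabes" the log2 difference was -1.18 ± 0.198 in control Treg cells (adjusted p = 0.00316, kept in 8 of 8 fits) and -0.88 ± 0.198 in rescued Treg cells (adjusted p = 0.0126, kept in 7 of 8). The latter was lost without male "wannabe" replicate 2 (-0.59, adjusted p = 0.074). Between rescued and control Treg cells the difference was 0.30 ± 0.179 (adjusted p = 0.473).

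In females Cish was at 6593, 8009 and 6718 normalized counts in resting and at 11079 and 11845.0 in activated "wannabes". Every activated library was above every resting one. The increase was 0.69 ± 0.104 (adjusted p = 0.00639), kept in 4 of 5 fits and lost without activated replicate 2 (adjusted p = 0.0668). Antisense models Gm17041 and Gm17040 overlap 479 and 261 exonic bases of Cish, and whether counting used strand is not given in the sources used here.

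Socs2 (chr10:95385362-95417180, minus strand), which encodes another inhibitor of the same family, took a different course. It was at 3062, 3124 and 2949 normalized counts in control Treg cells, 3876, 4127 and 3406 in rescued Treg cells and 1941 and 2987 in male "wannabes". Rescued libraries were above all others of the experiment, and control and male "wannabe" libraries overlapped. The differences were 0.32 ± 0.183 (adjusted p = 0.439) between rescued and control Treg cells, 0.30 ± 0.207 (adjusted p = 0.345) between control Treg cells and male "wannabes", and 0.63 ± 0.209 (adjusted p = 0.0712, and 0.0336 by DESeq2) between rescued Treg cells and male "wannabes". The last passed without male "wannabe" replicate 2 (0.926, adjusted p = 0.0193).

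In females Socs2 was at 10130, 13917.0 and 7511 normalized counts in resting and at 3809 and 3545 in activated "wannabes". The resting libraries were all above the activated ones although they spread widely. The log2 difference was -1.52 ± 0.248 (adjusted p = 0.00843), opposite in sign to that of Cish, and the call was lost without either activated library (0.082 and 0.0728). The log2 change from control to rescued Treg cells exceeded that from resting to activated "wannabes" by 1.85 ± 0.314 (interaction over 13 libraries, edgeR adjusted p = 0.0123). Socs2 was the 1 gene of 10 to pass that test, beside 1.53% of 15201 genes, and its call was lost without either activated library (0.0816 and 0.0694).

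Set against each other per kilobase, Cish mRNA exceeded Socs2 mRNA by 17.4 and 17.3 times in male "wannabes". The ratio ran from 5.21 to 6.69 in control and from 5.18 to 7.08 in rescued Treg cells. In females it ran from 0.854 to 1.33 in resting "wannabes" and was 4.32 and 4.96 in activated ones. The targets therefore gave no common ranking of the groups. This ratio too was chosen after its values were seen and is given without a test. Its size depends on the lengths used, 6.42 kb for Cish and 9.53 kb for Socs2 over all annotated exons, which need not be those of the mRNA. The order of the groups by this ratio does not depend on them.

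**Figure D3:**
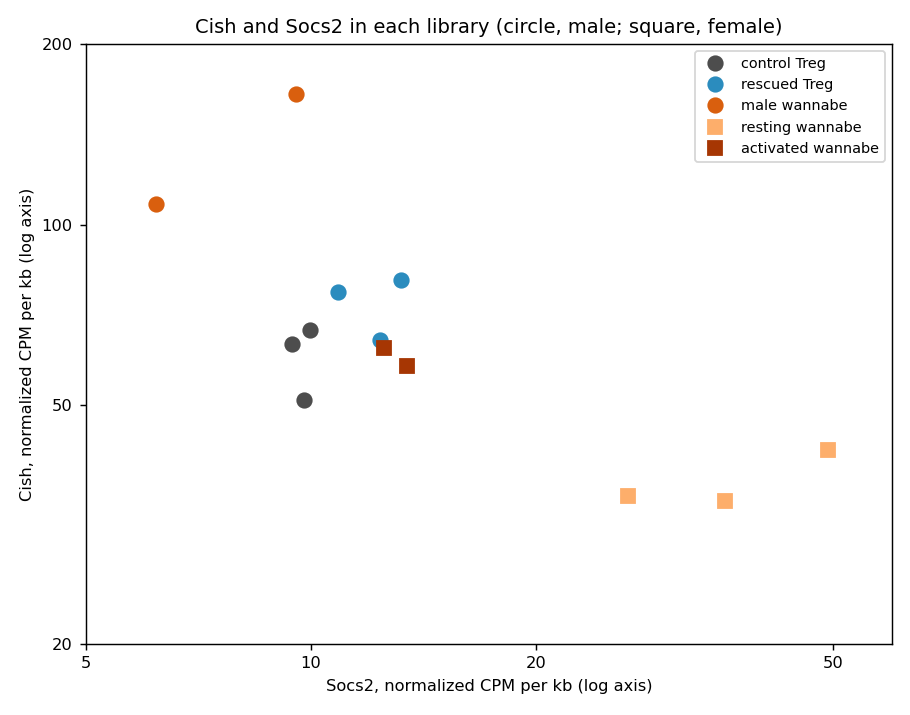
Level of Cish (vertical) against that of Socs2 (horizontal) in each library, both as normalized CPM per kilobase of exon on log axes. Circles are males, squares females, and levels are comparable within an experiment only. Resting "wannabes" lie lowest for Cish and highest for Socs2 among the females, and male "wannabes" highest for Cish among the males.

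The male "wannabe" libraries also differed from each other: replicate 2 was higher for 9 of the 10 genes, by 1.1 to 1.8 times, and lower only for Il2 (0.512 times). Of the 10786 genes with a mean above 100 normalized counts, 55.1% were higher in replicate 2, with a median ratio of 1.06, and 9 of 10 also held with DESeq2's size factors. This accompanies the losses and gains of calls without 1 of these libraries, given above, and its part in them was not tested.

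**Figure D4:**
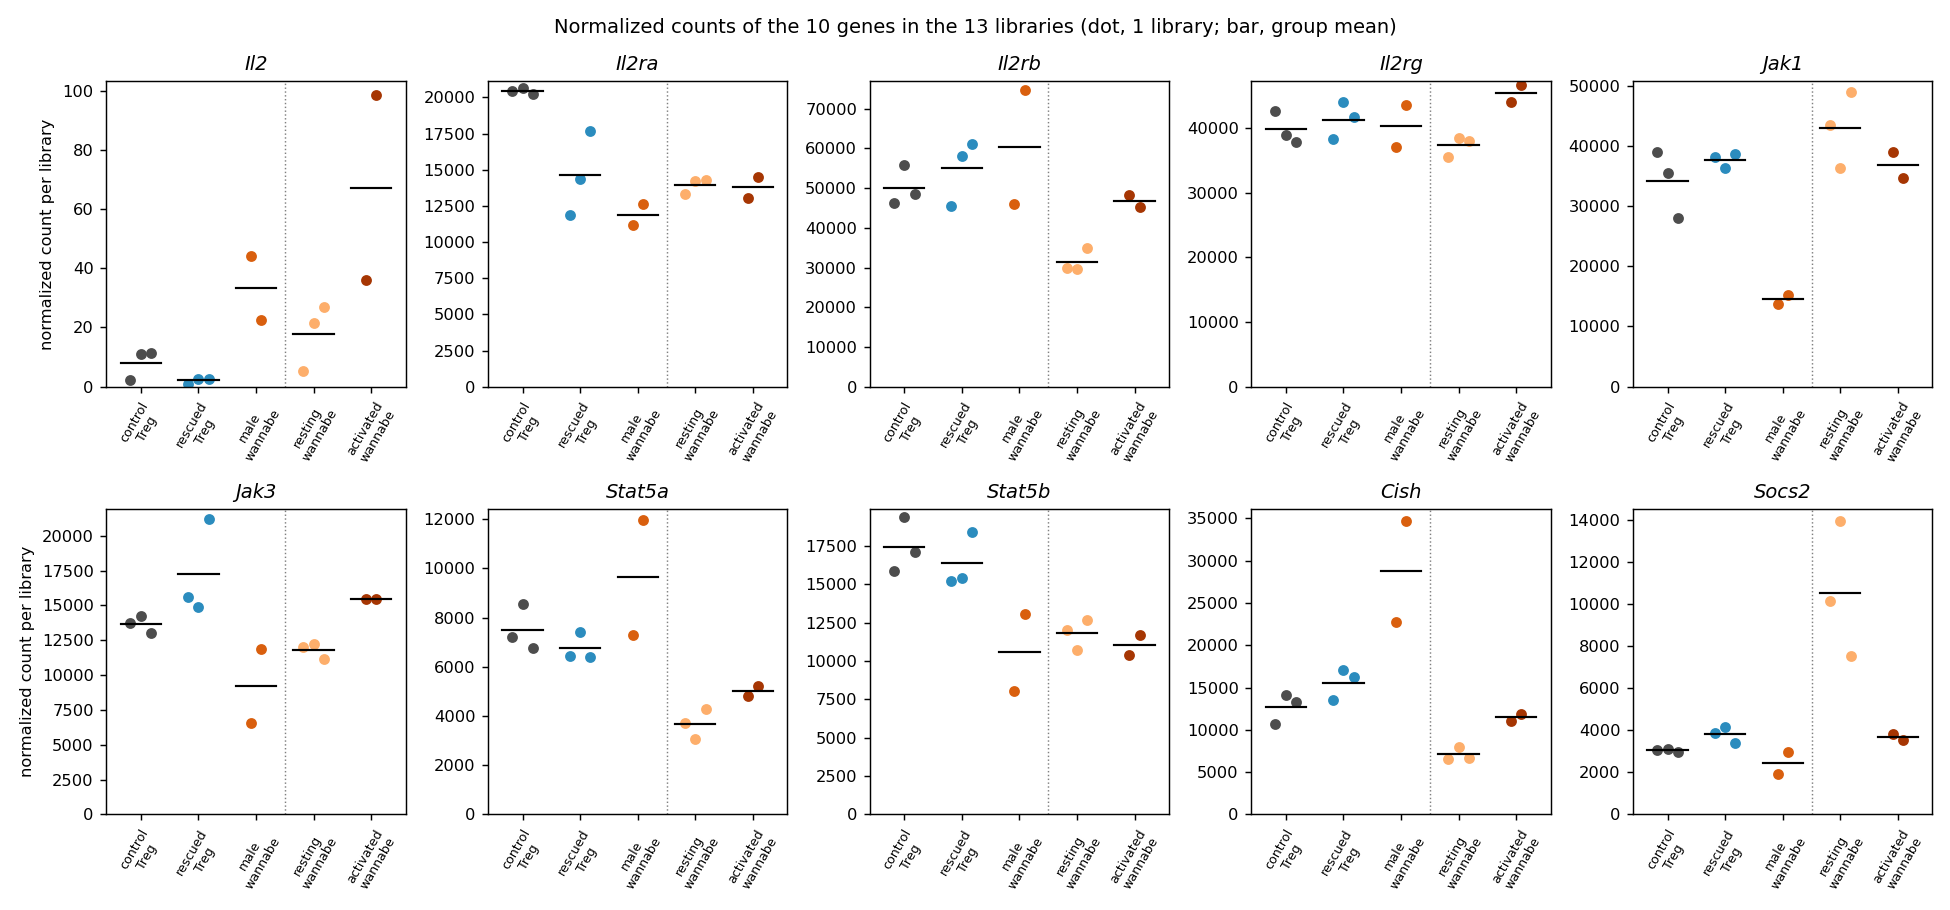
Normalized counts (vertical, linear from 0) of the 10 genes in all 13 libraries. Each dot is 1 library, bars are group means, and the dotted line parts males (left) from females (right), which were normalized separately. Jak1 is low and Cish high in male "wannabes", Il2ra is high in control Treg cells, and Socs2 is high in resting "wannabes".

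Between genes, levels are compared as normalized CPM per kilobase of exon, over all annotated exons, and the order depends on these lengths. Il2rg led in all 5 groups, with group means of 507.9 to 639.7, followed by Il2rb at 247.3 to 429, and the 2 chains overlapped only in male "wannabes". Jak1 ranked next in 4 groups, at 144 to 200. In male "wannabes" Cish took that place at 136.5, while Il2ra (63.5), Jak1 (61.1), Stat5b (58.2), Jak3 (52.6) and Stat5a (41.2) followed with ranges that overlapped from each to the next. In rescued Treg cells Jak3 (98.2), Stat5b (90.0), Il2ra (78.2) and Cish (74.0) overlapped in the same way, whereas in control Treg cells no neighbours in the order overlapped, from Il2ra (109.1) and Stat5b (96.0) to Jak3 (77.9) and Cish (60.3). Socs2 ranked below Stat5a in 4 groups, and in resting "wannabes" it stood at 37.2, beside Cish at 37.3 and above Stat5a at 17.4. Il2 was last throughout, at 0.0559 to 1.98.

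Around the 10 genes stood the common gamma chain cytokines and their receptors (11 genes, 10 tested in males). Their largest log2 differences in the males were those of Il4 and Il21, cytokines of helper T cells. Against male "wannabes" 4 were lower in control Treg cells (Il4, Il21, Il4ra and Il7r) and 0 higher, and in rescued Treg cells 3 were lower (Il4, Il21 and Il4ra) and 1 higher (Crlf2). Against control Treg cells, rescued Treg cells had 4 higher (Il4, Il21, Il7r and Crlf2) and 0 lower. These are 4 of 10, 4 of 10 and 4 of 10 genes tested, beside 16.2%, 14.1% and 2.3% of all genes. Calls kept in all 8 fits that left out a library were Il4, Il21 and Il4ra for control Treg cells against male "wannabes", Il4, Il4ra and Crlf2 for rescued Treg cells against male "wannabes", and Il4 for rescued against control Treg cells. Il4 was at 0 to 10.4 normalized counts in control Treg cells, 299.3 to 659.5 in rescued Treg cells and 2609 to 3077 in male "wannabes", with log2 differences of 6.5 ± 0.671 (adjusted p = 0.00119) for rescued against control Treg cells and -2.75 ± 0.523 (adjusted p = 0.00525) for rescued Treg cells against male "wannabes". For control Treg cells against male "wannabes" it was -9.25 ± 0.729 (adjusted p = 0.000135). Il21 took the same order, at 0 to 5.36, 29.8 to 122.1 and 374.8 to 501.8 normalized counts, with log2 differences of 5.03 (adjusted p = 0.0198), -2.66 (adjusted p = 0.0496) and -7.69 (adjusted p = 0.00115). The first was kept in 5 of 8 fits and lost without rescued replicate 3 (0.0541), control replicate 2 (0.0924) or control replicate 3 (0.0622). The second was kept in 3 of 8, and lost without either male "wannabe" library (0.184 and 0.1), rescued replicates 1 or 2 (0.123 and 0.145) or control replicate 2 (0.0542). The medians of the list were 0.83, -0.57 and 0.15 for rescued against control, control against male "wannabe" and rescued against male "wannabe", beside -0.03, 0.09 and 0 for all genes.

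In activated against resting "wannabes" 2 of the 9 tested genes of that list were higher (Il4 and Il9r) and 1 was lower (Il21), beside 11.3% higher and 11.2% lower of all genes, with a median of 0.41 beside -0.01 for all genes. Il9r, a receptor chain that signals with the gamma chain, went from 0 to 46.9 normalized counts up to 263.5 and 413 (3.48 ± 0.902, adjusted p = 0.0371). DESeq2 did not call it (adjusted p = 0.182), and it was lost without activated replicates 1 or 2 (0.206 and 0.137) or resting replicate 3 (0.0541). Il21 went from 1836 to 3254 down to 381.8 and 389.5 (-2.73 ± 0.253, adjusted p = 0.00113). Il21 was kept in 5 of 5 fits that left out a library, and Il4 and Il9r in 2 of 5 each.

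Of 7 other JAK and STAT genes, 0 passed by edgeR for rescued against control Treg cells, beside 2.3% of all genes, where Stat2 had an unadjusted p under 0.05 (16.1% of all genes) and was the 1 gene called by DESeq2 (8.16%). For control Treg cells against male "wannabes" 0 passed by edgeR or DESeq2, beside 16.2% and 25.6% of all genes, and 1, Jak2, had an unadjusted p under 0.05, beside 31.2%. Of the 7, 1 was lower in rescued Treg cells than in male "wannabes" (Jak2), beside 14.1% of all genes and kept in 3 of 8 fits, and Jak2 was higher in activated "wannabes", a call kept in 2 of 5 fits. In the order rescued against control, control against male "wannabe", rescued against male "wannabe" and activated against resting, which also holds for the medians below, the log2 medians of the list were 0.00265, 0.01, -0.16 and 0.08, beside -0.03, 0.09, 0 and -0.01 for all genes tested.

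The inhibitors of cytokine signalling (15 genes) included the nearest relatives of Cish and Socs2. Between rescued and control Treg cells 0 passed by edgeR or DESeq2, beside 2.3% and 8.16% of all genes, and 2 (Socs3 and Ptpn6) had an unadjusted p under 0.05, beside 16.1%. Control Treg cells had 3 higher than male "wannabes" (Socs1, Socs4 and Pias2) and 0 lower, and rescued Treg cells 5 higher (Socs1, Socs3, Socs4, Ptpn11 and Pias2) and 0 lower. These are 3 of 15 and 5 of 15, beside 9.92% and 10% of all genes called higher. In the fits that left out a library, Socs4 was kept in 8 of 8 in the first comparison and Socs1, Socs3 and Socs4 in the second, whereas Ptpn11 was kept in 0 of 8. Socs1, an inhibitor that binds JAK kinases, was at 1096 to 2198 normalized counts in control Treg cells, 1410 to 3661 in rescued Treg cells and 140.0 and 441.6 in male "wannabes". The differences were 2.36 ± 0.565 (adjusted p = 0.0168) and 2.96 ± 0.582 (adjusted p = 0.00628), so Socs1 was low in the group where Cish was highest. The first was lost without male "wannabe" replicate 1 (0.0692) or control replicate 2 (0.0501). Socs4 was higher by 1.88 ± 0.358 in control Treg cells (adjusted p = 0.00557). In activated "wannabes" Socs1 and Socs3 were higher and Socs4 lower, 3 of 15 beside 22.5% of all genes, and 0 of these calls were kept in all 5 fits. The medians were 0.01, 0.45, 0.44 and 0.01.

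Of 26 genes known to be induced by STAT5, 12 were higher and 2 lower in activated against resting "wannabes", beside 11.3% higher and 11.2% lower of all genes, with a median of 0.44 beside -0.01 for all genes tested. The higher ones included the costimulatory receptor Tnfrsf4 (OX40), from 5844 to 7089 up to 17608 and 18879 normalized counts (1.52 ± 0.1, adjusted p = 0.000465). They also included the Treg transcription factor Ikzf2 (Helios; 1.59 ± 0.213, adjusted p = 0.00413), the protease Gzmb (2.72 ± 0.496, adjusted p = 0.0126), Socs1, Socs3, Pim2, Bcl2l1, Cdk6, Osm, Tnfrsf9, Tnfrsf18 and Gadd45g. The lower ones were Ccnd2 and Foxp3, the latter read from the interrupted allele. Of the 12 higher calls, 3 (Tnfrsf4, Tnfrsf18 and Ikzf2) were kept in all 5 fits that left out a library, and of the 2 lower ones 0 were. Gzmb was lost without activated replicates 1 or 2 (0.0635 and 0.0901), and Cdk6 and Foxp3 were kept in 1 of 5 fits each. The B cell marker list, of which all 4 genes were found in both groups, had a summed level of 291 to 360 normalized counts in resting and 665 to 730 in activated libraries, most of it from Cd79b (223 to 261 and 602 to 650), with Ms4a1 at or under 12.6. Its part in these changes was not tested.

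In males the same list moved both ways. Rescued Treg cells had 5 higher than control Treg cells (Nfil3, Gzmb, Foxp3, Id2 and Prdm1) and 2 lower (Bcl2 and Lta), beside 1.43% higher and 0.864% lower of all genes, with a median of 0.21 beside -0.03. Gzmb, Foxp3, Id2, Bcl2 and Lta were kept in all 8 fits that left out a library, and Prdm1 in 4 of 8. Nfil3 was lost without control replicates 1 or 2 (0.0667 and 0.0547). Gzmb was at 1992 to 2961 normalized counts in control and 9855 to 15871.5 in rescued Treg cells (2.48 ± 0.23, adjusted p = 0.000612), and Nfil3, a transcription factor, at 195.3 to 327.4 and 821.7 to 3733 (3.05 ± 0.491, adjusted p = 0.011). Lta, which encodes lymphotoxin alpha, was at 2929 to 3697 and 939.2 to 1500.0 (-1.54 ± 0.239, adjusted p = 0.00964). Foxp3 (2.18 ± 0.18, adjusted p = 0.000393) is the engineered locus itself. Both NK cell markers together were at 13.7 to 43.4 normalized counts in control, with Ncr1 at 0, and at 94.6 to 223 in rescued Treg cells, both groups having been sorted as NK1.1-, and their part in the change of Gzmb was not tested.

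Against male "wannabes", control Treg cells had 5 of the list higher (Socs1, Pim1, Tnfrsf9, Foxp3 and Ikzf2) and 3 lower (Osm, Gzmb and Id2), beside 9.92% higher and 6.27% lower of all genes, with a median of 0.00209 beside 0.09. Rescued Treg cells had 7 higher (Socs1, Socs3, Pim1, Gzmb, Tnfrsf9, Foxp3 and Ikzf2) and 4 lower (Bcl2, Myc, Lta and Id2), beside 10% higher and 4.06% lower, with a median of 0.18 beside 0. In the 8 fits that left out a library, every fit kept Tnfrsf9, Foxp3, Ikzf2, Gzmb and Id2 in the first comparison and Socs1, Socs3, Pim1, Tnfrsf9, Foxp3, Bcl2 and Id2 in the second. Osm of the first was kept in 3 of 8, and Myc and Lta of the second in 4 and 2 of 8. The NK cell markers were at 151 to 224 normalized counts in male "wannabes", all from Klrb1c with Ncr1 at 0, beside the 13.7 to 43.4 of control Treg cells, in cells sorted as NK1.1-. Klrb1c was called lower in control Treg cells, as were Cd4 and the red cell marker Hba-a1, and the myeloid marker Itgam was called higher, with the myeloid list at 128 to 358 in control Treg cells and 32.3 to 53.6 in male "wannabes". In rescued Treg cells Cd4 was also called lower than in male "wannabes" (log2 difference -1.27, adjusted p = 0.000589). The part of these markers in the changes of the list was not tested. Tnfrsf9 (4-1BB) was at 10895 to 11289 normalized counts in control and 11298 to 14568 in rescued Treg cells and at 3416 and 3671 in male "wannabes", higher by 1.65 ± 0.164 (adjusted p = 0.000368) and 1.91 ± 0.166 (adjusted p = 0.000233). Id2, an inhibitor of E-protein transcription factors, was lower in control Treg cells (log2 difference -2.99 ± 0.212, adjusted p = 6.44e-05). Foxp3 was higher in rescued Treg cells by 3.39 ± 0.224 (adjusted p = 6.25e-05). It is the engineered locus, interrupted in male "wannabes" and used for the sort, so its calls in both comparisons cannot be told apart from the design.

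**Figure D5:**
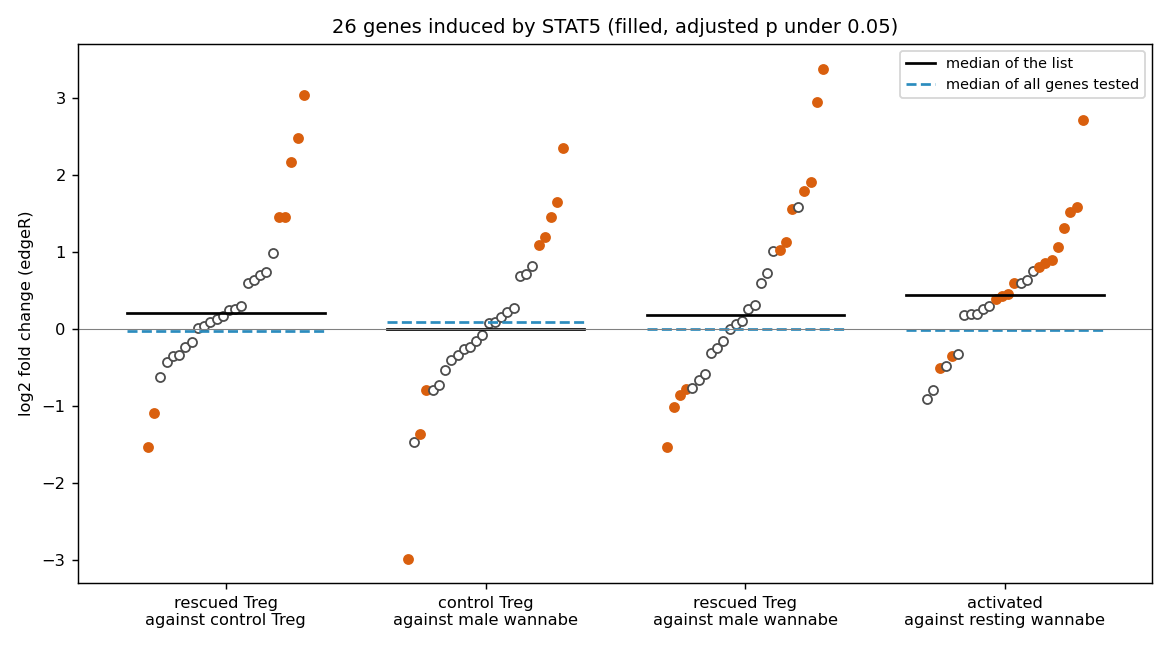
Log2 fold change (vertical, edgeR) of 26 genes induced by STAT5, sorted within each of the 4 comparisons. Filled points passed at adjusted p under 0.05, the black line is the median of the list and the dashed line that of all genes tested. The median lies furthest above that of all genes in activated against resting "wannabes", at 0.44 beside -0.01.

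Of 5 genes known to be repressed by STAT5, Tcf7, a transcription factor of less differentiated T cells, was lower in rescued Treg cells than in male "wannabes" (log2 difference -2.05 ± 0.163, adjusted p = 0.000202) and also lower in control Treg cells. In rescued against control Treg cells 1 was higher (Il7r) and 2 lower (Il6st and Tcf7), beside 2.3% of all genes. In control Treg cells against male "wannabes" 2 were higher (Il6ra and Il6st) and 2 lower (Il7r and Tcf7), beside 16.2%, and in rescued Treg cells 1 was higher (Il6ra) and 2 lower (Bcl6 and Tcf7), beside 14.1%. In the first of these comparisons Tcf7 was kept in all 8 fits that left out a library, Il7r in 4 and Il6st in 2. In the second Il7r was kept in 5 of 8 and the others in 8, and in the third all 3 were kept in 8. In activated against resting "wannabes" 0 of 5 passed by edgeR, beside 22.5% of all genes, while 2 (Il6ra and Il6st) had an unadjusted p under 0.05, beside 38.1%, and were called by DESeq2, beside 26.6%. The medians were -0.74, -0.74, 0.27 and -0.23.

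Of 21 adaptors and kinases of the MAPK and PI3K branches, 20 were tested and 0 passed by edgeR between rescued and control Treg cells, beside 2.3% of all genes. There 3 (Sos1, Pik3r1 and Akt1) had an unadjusted p under 0.05, beside 16.1%, and DESeq2 called 1 (Akt1), beside 8.16%. Against male "wannabes", Map2k1 was higher and Shc1 and Mapk3 were lower in control Treg cells, and Grb2 and Map2k1 were higher and Shc1, Mapk3 and Pik3cd lower in rescued Treg cells, in comparisons where 16.2% and 14.1% of all genes passed. Map2k1 was kept in 8 of 8 fits of both, whereas Grb2 was kept in 2 of 8 and Shc1 and Pik3cd in 5 of 8. In activated "wannabes" 3 were higher (Gab2, Akt1 and Syk) and 1 lower (Pik3r1), a share not above the 22.5% of all genes. Syk was kept in all 5 fits that left out a library, Gab2 in 4, Pik3r1 in 3 and Akt1 in 2. Syk, a kinase best known from B and myeloid cells, rose from 11.2 to 28.1 up to 213.6 and 318.8 normalized counts (3.77 ± 0.398, adjusted p = 0.00173). The myeloid list (5 markers) was at 29.5 to 117 in resting and 101 to 213 in activated libraries, with Cd14 at 0 in the latter, beside the B cell values given above, and their part in the change of Syk was not tested. The medians of the list were 0.07, 0.14, 0.05 and 0.04.

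The genes whose pattern was most like that of Cish over the 13 libraries, by Pearson correlation of log2 CPM after the mean of each experiment was taken off, among 10240 genes, were Qsox1 (0.975), Wars (0.961), Ndufv3 (0.959), St6galnac4 (0.959) and Ttll12 (0.955). For Socs2 they were Ncmap (0.971), Fam46c (0.927), Spock2 (0.922), D5Ertd579e (0.921) and Alpk2 (0.902), and for Il2ra Slc25a27 (0.966), Sp100 (0.948), Plcb2 (0.941), Ifnar1 (0.939) and Plcxd2 (0.936). No other of the 10 genes was among these. Between the members, Cish went with Il2rb (0.721) and Stat5a (0.702) and against Jak1 (-0.788), and with Socs2 the value was -0.489. All these values share the same libraries and the same few groups and describe them only.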

How the data were processed

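The authors deposited 2 tables of raw counts per gene, 1 for the 8 male and 1 for the 5 female libraries, made by SMART-Seq v4 amplification of doubly sorted cells, alignment with STAR 2.7.3a to GRCm38, local realignment and counting in R; the annotation and strand setting are not given in the sources used here. Of 24421 rows, 4 without a gene name (at most 0.00841% of a library's counts) were left out, and no column was set aside. Male columns named GFP or Thy1 were assigned by the study's gates (GFP+ rescued, Thy1.1+ "wannabe"), and those named DTR by the control genotype. Control cells carried GFP too, so the gate alone does not part rescued from control columns. The female groups followed the titles and genotypes, which give 2 activated and 3 resting libraries where the design text has these numbers the other way round. Low amplification input makes rare transcripts such as Il2 less certain. Replicates differed by more than sampling noise, so each counted as 1 sample.

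Counts were scaled by TMM within each experiment and tested with edgeR 4.0.16 (quasi-likelihood test, filterByExpr, Benjamini-Hochberg adjustment over all genes tested, threshold 0.05) in 1 fit of the males, 1 of the females and 1 of all 13 libraries for the difference of changes. Errors are the log2 fold change divided by the root of the F statistic. The code was tested on simulated counts. DESeq2 1.42.0, other scalings and filters, a replicate block and leaving out each library were the alternatives. Levels per kilobase used the union of exons in GENCODE M21 (10 of 10 genes matched), which counts rare exons in full. Interval bounds for Il2 are exact binomial at 95%, and the Stat5a share was compared by two-sided exact permutation tests, whose smallest p was 0.1 for 3 against 3 and 0.2 for 3 against 2 libraries.

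The 10 genes, the lists and the ratios were chosen with earlier results of these data known. Named beside the 10 were Foxp3, in each comparison up to 6 list genes, by size of change, that passed the threshold without overlap between groups at a mean above 100 normalized counts, and the 5 genes most correlated with Cish, Socs2 and Il2ra. In lists, other genes are named only for their direction. Results of some list genes are not reported here.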

Additional observations from a re-analysis of the deposited data

Results flagged for a closer look

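The change from control to rescued Treg cells differed from the change from resting to activated "wannabes" for 13 of the 90 pathway and list genes tested, beside 1.53% of all 15201 genes, by the interaction contrast of edgeR over 13 libraries. The genes and lists had been chosen with earlier results of these data known, so the 2 shares are not an independent comparison. Values are the log2 change of the first less that of the second, and the experiments also differed in sex, age, drug and count table, whose effects cannot be told apart. Socs2 was the only one of the 10 pathway genes among them (1.85, adjusted p = 0.0123): it fell with activation of "wannabes" and was not called between rescued and control Treg cells.

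Among the surrounding genes, the difference was positive for Il21 (7.82), Il4 (5.12), Nfil3 (3.55), Foxp3 (2.55), Prdm1 (2.27), Id2 (1.8) and Il7r (1.26). It was negative for Syk (-4.25), Ikzf2 (-2), Lta (-1.73), Bcl2 (-1.37) and Tcf7 (-1.01). Adjusted p-values of these 12 ran from 0.000638 (Foxp3) to 0.033 (Il7r), and DESeq2 called all 12. Of the 13 genes, only Il21 and Foxp3 were called in all 13 fits that left out a library. Foxp3 is the engineered locus, whose allele differed between the groups compared. Il4, Bcl2, Id2, Tcf7 and Socs2 were lost without either activated library, and Lta and Syk without activated replicate 2. The calls of Nfil3 (kept in 8 of 13), Ikzf2 and Prdm1 (7 each) and Il7r (5) were lost without either activated library, without resting replicates 1 or 2, and without at least 1 further library of the males. The cytokine genes Il4 and Il21 were both higher in rescued than in control Treg cells, whereas activation of "wannabes" came with more Il4 and less Il21. No group had the 4 libraries that a search for single outlying samples needs.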

How the results depend on the processing

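Counts of genes called depended on the settings more than the direction of the 10 genes did. DESeq2 called 1195 genes for rescued Treg against control Treg (343 by edgeR), 3751 for control Treg against male wannabe (2416), 3316 for rescued Treg against male wannabe (2105) and 792 for the difference of changes (233). For rescued Treg against control Treg, no filter gave 612 and a fit of only the 2 groups compared gave 580. Of the 10 genes, rescued Treg against male wannabe had 6 called by DESeq2 and 5 with a mean above 100, in place of 3. A fit of only the 2 groups compared left 2 called there (Jak3 lost, with a log2 difference of 0.871) and 3 for control Treg against male wannabe (Stat5b lost, at 0.693), in place of 4. Leaving out 1 library gave 114 to 598 genes for rescued Treg against control Treg, 1549 to 2423 for control Treg against male wannabe, 751 to 3215 for activated against resting wannabe and 44 to 430 for the difference of changes. Of the 10 genes it left 0 to 6 called for activated against resting wannabe, 0 and 1 of these without activated replicate 2 and 1, and 0 to 1 for the difference of changes.

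Small estimates changed sign when a library was left out. For control Treg against male wannabe, Il2rb ran from -0.581 to 0.0798 and Il2rg from -0.136 to 0.0589, and for rescued Treg against male wannabe from -0.447 to 0.214 and from -0.0822 to 0.114. In each case the end of reversed sign came from a fit without a male "wannabe" library. Il2rg in control Treg against male wannabe also turned without control replicates 2 (0.00065) or 3 (0.0192) or rescued replicate 2 (0.014). Il2ra in activated against resting wannabe ran from -0.105 to 0.0521, and in the difference of changes Jak3 ran from -0.198 to 0.0795 and Stat5b from -0.0681 to 0.126. The Stat5a share in rescued less control Treg cells ran from -2.03 to 0.932 percentage points. DESeq2's size factors gave 20202.3 for the level of Il2ra in control Treg and 15474.7 for Jak3 in activated wannabe libraries, beyond their narrow spread. The causes were not tested.

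With the replicate block, 426, 2304, 1968, 2045 and 238 genes were called in the comparisons in the order of the report and for the difference of changes, and the signs of Il2rg in control Treg against male wannabe (0.00228) and of Stat5b in the difference of changes (-0.0311) turned. Under the block activated against resting wannabe had 7 of the 10 genes called, adding Stat5a and Il2. Deviations of same-numbered libraries correlated at -0.0804 to 0.238, and not every library correlated best with its own number, so the numbers were not taken as pairs. Of the 694 values of the 10 genes under all alternatives, 637 kept their direction and their side of the threshold. With 2 or 3 libraries a group, depth limited only Il2.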
